A study of Homo sapiens with 22 samples.

Results

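The genes described here are 42 mouse genes of DNA replication and mitosis, read in the host cells of human tumour xenografts. They were chosen by symbol from a fixed list, with no measured value in the rule, and all 42 were found once among the 54532 genes of the mouse table. Their 42 human orthologues, found among the 58735 genes of the human table, stand for the same programme in the tumour cells of the same samples. The xenografts were grown from H3122, a human lung cancer cell line driven by an ALK fusion (ALK+ NSCLC in the labels), and were profiled by bulk RNA sequencing of whole tumour tissue in 22 samples. The mouse reads come from whatever host tissue a tumour holds, here called stroma, and the labels name no stromal cell type.

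The samples form 6 groups. In hHGF-NSG hosts, which the labels call humanized HGF-NSG, tumours had received no therapy (naive) or alectinib, which blocks the ALK kinase, over 2 or 6 weeks, and NSG hosts had the same 3 states. NSG mice lack T, B and NK cells, which holds for all 6 groups. The labels do not give the promoter, the expressing cell type or the number of founder lines of the human HGF allele, nor the age of the mice. The mouse table was analysed in 20 libraries, 3 naive, 4 at 2 weeks and 3 at 6 weeks in each host. Its 3 naive NSG libraries are replicates 1, 3 and 4, and its 3 NSG libraries at 6 weeks are replicates 1 to 3, since the other sample of each group was not analysed here in mouse. The human table covered all 22 libraries. Separate animals are not stated for the samples of a group, and the p-values therefore describe the spread from sample to sample, which may be technical. Values are FPKM, reads scaled for gene length and library size, as the authors deposited them. Whole reads recovered from the FPKM steps added up to 895826 to 5766509 mouse reads and 10688632 to 19065656 human reads per library.

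One library goes against its label. Human HGF, which should mark hHGF-NSG hosts, had 43 reads in the library labelled NSG naive replicate 1, against 0 to 6 reads in the other NSG libraries and 13 to 79 reads in the hHGF-NSG libraries. Counts and medians over all 42 genes that rest on naive NSG tumours are therefore also given without this library, and its removal is mentioned for roles and single genes where it ends a call. It is called the doubtful naive library where the full label would be long.

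Cells that divide switch on these genes in waves. The E2F factors drive the genes of DNA synthesis, such as the MCM helicase that opens the double helix and the enzymes that supply nucleotides. Later the MuvB complex with B-Myb and FoxM1 drives the genes of mitosis, whose promoters often hold a cell cycle homology region close to the start site and CCAAT boxes before it. In tumour stroma the dividing cells can be endothelial cells, pericytes, fibroblasts or macrophages. No mouse genome was used here, so promoters are shown for human orthologues, from RefSeq on GRCh38.p14. Each stretch holds the 200 bases that end at the gene's start. Capitals mark letter matches on either strand. The letters are TTTGAA or TTTAAA for the cell cycle homology region and CCAAT for the CCAAT box. For the E2F site they are TTTGGCGC, TTTCCCGC, TTTCGCGC or TTTGCCGC. CCNB1 (chr5:69166950-69167149, plus strand), PLK1 (chr16:23678689-23678888, plus strand) and TOP2A (chr17:40417897-40418096, minus strand) are shown for the mitotic members, and MCM6 (chr2:135876444-135876643, minus strand) for the replication members. Mouse Ccnb1, Plk1 and Top2a were called lower at 2 weeks in both hosts, in NSG only with the doubtful naive library. In MCM6 the E2F sites of both strands overlap.
CCNB1: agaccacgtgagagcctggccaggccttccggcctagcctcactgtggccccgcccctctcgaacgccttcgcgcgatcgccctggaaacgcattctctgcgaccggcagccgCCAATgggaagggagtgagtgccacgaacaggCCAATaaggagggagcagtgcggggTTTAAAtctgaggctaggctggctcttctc
PLK1: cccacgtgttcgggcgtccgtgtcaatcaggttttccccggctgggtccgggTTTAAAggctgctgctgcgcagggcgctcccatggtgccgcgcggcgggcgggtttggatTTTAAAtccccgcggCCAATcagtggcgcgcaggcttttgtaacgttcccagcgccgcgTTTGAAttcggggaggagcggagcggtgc
TOP2A: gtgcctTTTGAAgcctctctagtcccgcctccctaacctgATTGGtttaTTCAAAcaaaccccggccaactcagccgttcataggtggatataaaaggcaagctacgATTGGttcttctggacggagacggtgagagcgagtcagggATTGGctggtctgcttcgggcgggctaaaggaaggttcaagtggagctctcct
MCM6: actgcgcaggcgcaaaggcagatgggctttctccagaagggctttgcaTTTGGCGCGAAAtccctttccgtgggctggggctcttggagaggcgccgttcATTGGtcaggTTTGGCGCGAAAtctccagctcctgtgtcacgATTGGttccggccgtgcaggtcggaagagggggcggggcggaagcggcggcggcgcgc

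In windows from 250 bases before to 50 bases after the start, found for 35 of the 42 genes, the cell cycle homology region occurred in 21 of 25 mitotic members and regulators (84%) and in 3 of 10 replication members (30%), against 27.9% of 27305 genes. An E2F site of the letters above occurred in 2 of 25 (8%) and 7 of 10 (70%), against 3.99% of all genes. The CCAAT box occurred in 18 of 25 (72%) and 8 of 10 (80%), against 39.7%. AURKA, BIRC5, FOXM1, MCM4, MCM5, TPX2 and UBE2C had no entry. Where a gene had several listed starts, a match at any of them was counted. These matches describe the letters and were not tested for function in the xenografts.

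The stroma lost most of its proliferation programme by 6 weeks of alectinib in both hosts, with levels in between at 2 weeks. Summed over the 42 genes, the level in hHGF-NSG hosts was 169.0 to 187.3 FPKM in naive tumours, 74.8 to 126.8 FPKM at 2 weeks and 54.8 to 56.8 FPKM at 6 weeks. In NSG hosts it was 226.2 to 308.1 FPKM in naive tumours, 119.7 to 165.2 FPKM at 2 weeks and 57.3 to 62.9 FPKM at 6 weeks. In each host the 3 states did not overlap, and the 6 weeks libraries of both hosts lay close together. The mouse libraries at 6 weeks were also deeper than the naive ones, with 4356095 to 5766509 reads in hHGF-NSG, against 1127966 to 2471749 reads in naive tumours, and 2594895 to 3340218 reads in NSG, against 895826 to 2018939 reads. The library labelled NSG naive replicate 1 held the highest sum, and without it the naive NSG sums were 226.2 and 242.7 FPKM.

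**Figure D1:**
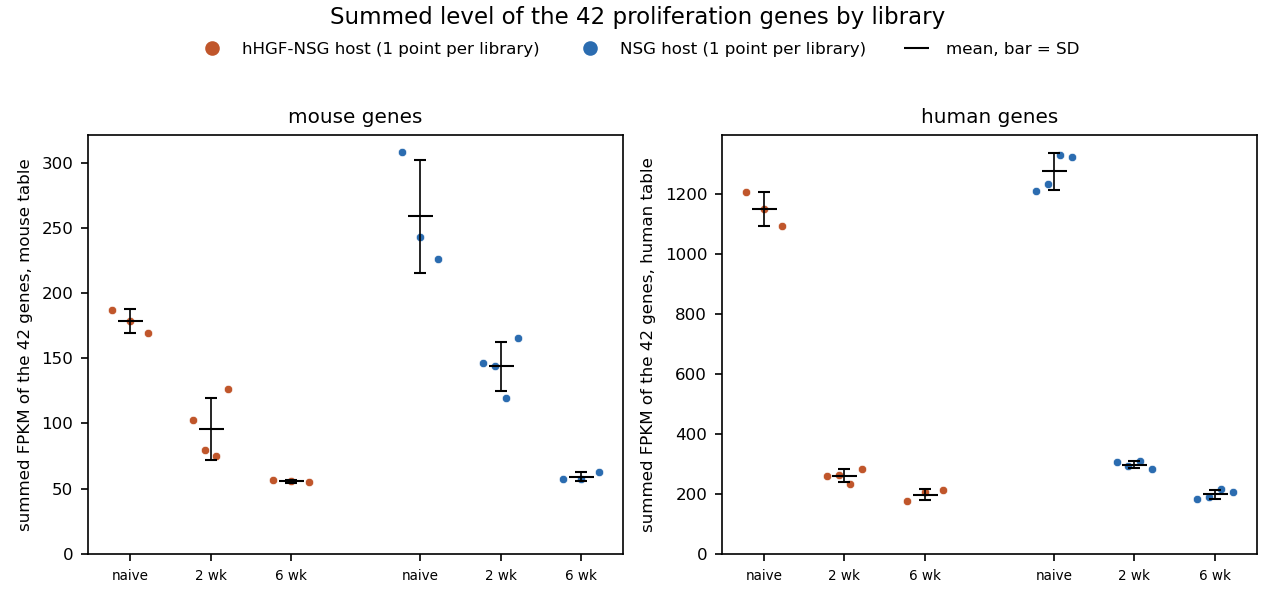
Summed FPKM of the 42 genes per library, in the mouse table (left) and the human table (right), for hHGF-NSG and NSG hosts in the naive state and at 2 and 6 weeks of alectinib, with 1 point per library and the mean with its SD. The mouse sums step down at both times (hHGF-NSG 2 weeks 74.8 to 126.8 FPKM, 6 weeks 54.8 to 56.8 FPKM), whereas the human sums drop mostly by 2 weeks (232.2 to 308.9 FPKM over both hosts, against 1093.1 to 1332.4 FPKM in naive tumours).

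All 42 mouse genes passed the filter for testing (at least 1 FPKM in 3 or more libraries), and no member rose in any comparison with naive tumours. The filter counts libraries of any group, so members with a low mean could pass through naive libraries alone. Aspm, Mybl2 and Ndc80 averaged 0.45, 0.625 and 0.641 FPKM over the mouse libraries and were highest in naive tumours. For such members the filter may favour a fall. In hHGF-NSG hosts 16 of the 42 fell at 2 weeks and 32 at 6 weeks (limma, adjusted p below 0.05 over all genes tested). The background was 7.06% of all 14287 genes called in either direction at 2 weeks (3.56% lower) and 17.8% at 6 weeks (8.12% lower). In NSG hosts 13 fell at 2 weeks and 38 at 6 weeks, beside 7.8% (4.48% lower) and 17.4% (8.59% lower) of all genes. The median change of the members on the log2(FPKM + 1) scale was -0.79 and -1.37 in hHGF-NSG at 2 and 6 weeks and -0.64 and -1.66 in NSG, while the median of all genes was 0.03 to 0.06 in these comparisons. Without the library labelled NSG naive replicate 1, 6 members fell at 2 weeks (median -0.47) and 34 at 6 weeks (median -1.53) in NSG hosts. Leaving out single libraries gave 5 to 13 calls at 2 weeks in NSG, the fewest without NSG 2 weeks replicate 3, and 8 to 19 in hHGF-NSG, the fewest without hHGF-NSG naive replicate 2. With all mouse libraries thinned to the depth of the shallowest, 10 fell at 2 weeks and 31 at 6 weeks in hHGF-NSG, and 8 and 35 in NSG. In bulk tissue fewer dividing cells and less RNA of these genes per cell cannot be told apart.

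**Figure D2:**
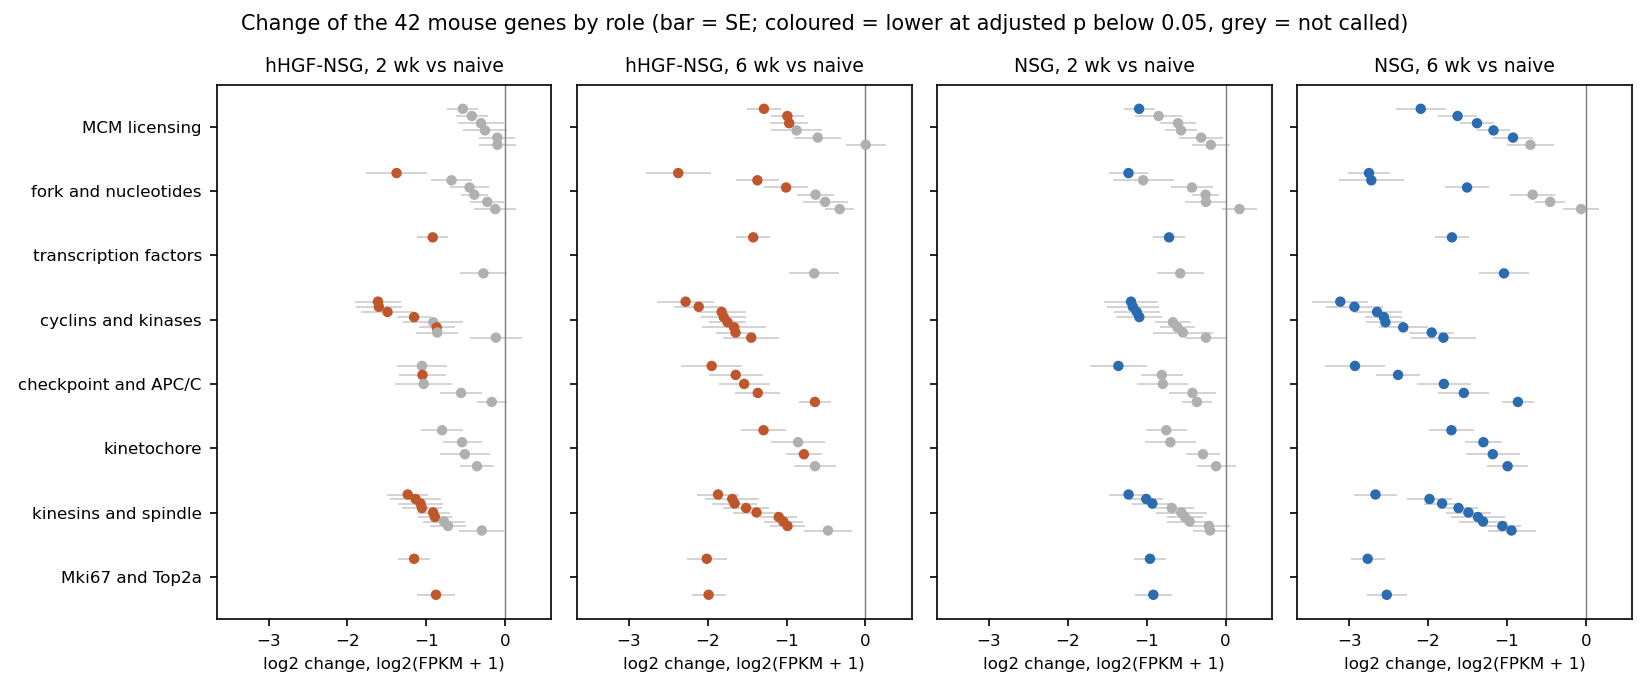
Change of each of the 42 mouse genes against naive tumours by role, on the log2(FPKM + 1) scale, with 1 panel per host and time. Points are fitted changes, bars are standard errors, coloured points were called lower at an adjusted p below 0.05 and grey points were not called. Cyclins and kinases, the checkpoint genes and Mki67 with Top2a are coloured throughout at 6 weeks. Grey points then remain among the MCM and the fork and nucleotide genes in both hosts. In hHGF-NSG Aspm, Cenpf, Mybl2 and Ndc80 of other roles are grey at 6 weeks as well.

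At 2 weeks 9 members fell in both hosts, namely Anln, Ccna2, Ccnb1, Foxm1, Mki67, Plk1, Prc1, Top2a and Tpx2. Setting aside the library labelled NSG naive replicate 1 left 3 of them called in both hosts (Anln, Mki67 and Tpx2), as Ccna2, Ccnb1, Foxm1, Plk1, Prc1 and Top2a were then not called in NSG. In hHGF-NSG the 2 weeks calls of Tpx2 and Top2a were lost under 5 and 8 of 13 alternatives. Another 7 passed the test in hHGF-NSG alone and 4 in NSG alone. At 6 weeks 32 fell in both hosts, and 6 passed the test in NSG alone (Aspm, Cenpf, Mcm5, Mcm7, Mybl2 and Ndc80), although the difference in response between the hosts was not called for any of them, and Aspm, Mcm7, Mybl2 and Ndc80 were not called in NSG either once that library was left out. The 4 members that passed in neither host at either time, Mcm3, Pcna, Rrm1 and Tyms, all serve DNA synthesis. The comparisons at 2 and 6 weeks share the naive libraries of their host.

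Mki67, which encodes the chromosome surface protein used to stain dividing cells (ENSMUSG00000031004, mm10 chromosome 7, 135689784 to 135716361, minus strand), fell at both times in both hosts. In hHGF-NSG hosts it had 3.95, 6.23 and 4.79 FPKM in naive tumours, 2.37, 1.15, 1.58 and 1.67 FPKM at 2 weeks and 0.391, 0.438 and 0.659 FPKM at 6 weeks. The NSG values were 9.61, 9.42 and 5.95 FPKM in naive tumours, 4.47, 2.98, 3.52 and 4.02 FPKM at 2 weeks and 0.366, 0.229 and 0.458 FPKM at 6 weeks. Every treated library lay below every naive library of its host, and every 6 weeks library below every 2 weeks library. The change at 2 weeks was -1.16 in hHGF-NSG (SE 0.202, limma adjusted p = 0.002245) and -0.96 in NSG (SE 0.202, adjusted p = 0.00655). At 6 weeks it was -1.99 in hHGF-NSG (SE 0.216, adjusted p = 1.268e-05) and -2.77 in NSG (SE 0.216, adjusted p = 2.936e-07). Its mean level at 2 weeks was 33.9% of naive in hHGF-NSG and 45.0% in NSG, and at 6 weeks 9.9% and 4.2%. Leaving aside the library labelled NSG naive replicate 1, NSG hosts had 48.7% and 4.6%. These 4 calls were kept under every alternative tried.

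Top2a, the topoisomerase that untangles chromosomes before they separate, followed the same course. It had 3.34, 7.22 and 4.83 FPKM in naive tumours, 2.34, 2.11, 1.69 and 2.87 FPKM at 2 weeks and 0.437, 0.762 and 0.254 FPKM at 6 weeks in hHGF-NSG hosts. NSG hosts showed 9.19, 7.26 and 4.83 FPKM in naive tumours, 3.93, 2.86, 2.26 and 3.91 FPKM at 2 weeks and 0.327, 0.319 and 0.474 FPKM at 6 weeks. The states did not overlap in either host. The 6 weeks change was -2.01 in hHGF-NSG (SE 0.255, limma adjusted p = 6.867e-05) and -2.52 in NSG (SE 0.255, adjusted p = 4.225e-06) and was kept under every alternative. The 2 weeks change was -0.88 in hHGF-NSG and -0.92 in NSG (adjusted p = 0.0326 and 0.02347), but these calls were lost under 8 and 5 of 13 alternatives, among them leaving out hHGF-NSG naive replicate 2 or 3 and leaving out the library labelled NSG naive replicate 1.

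**Figure D3:**
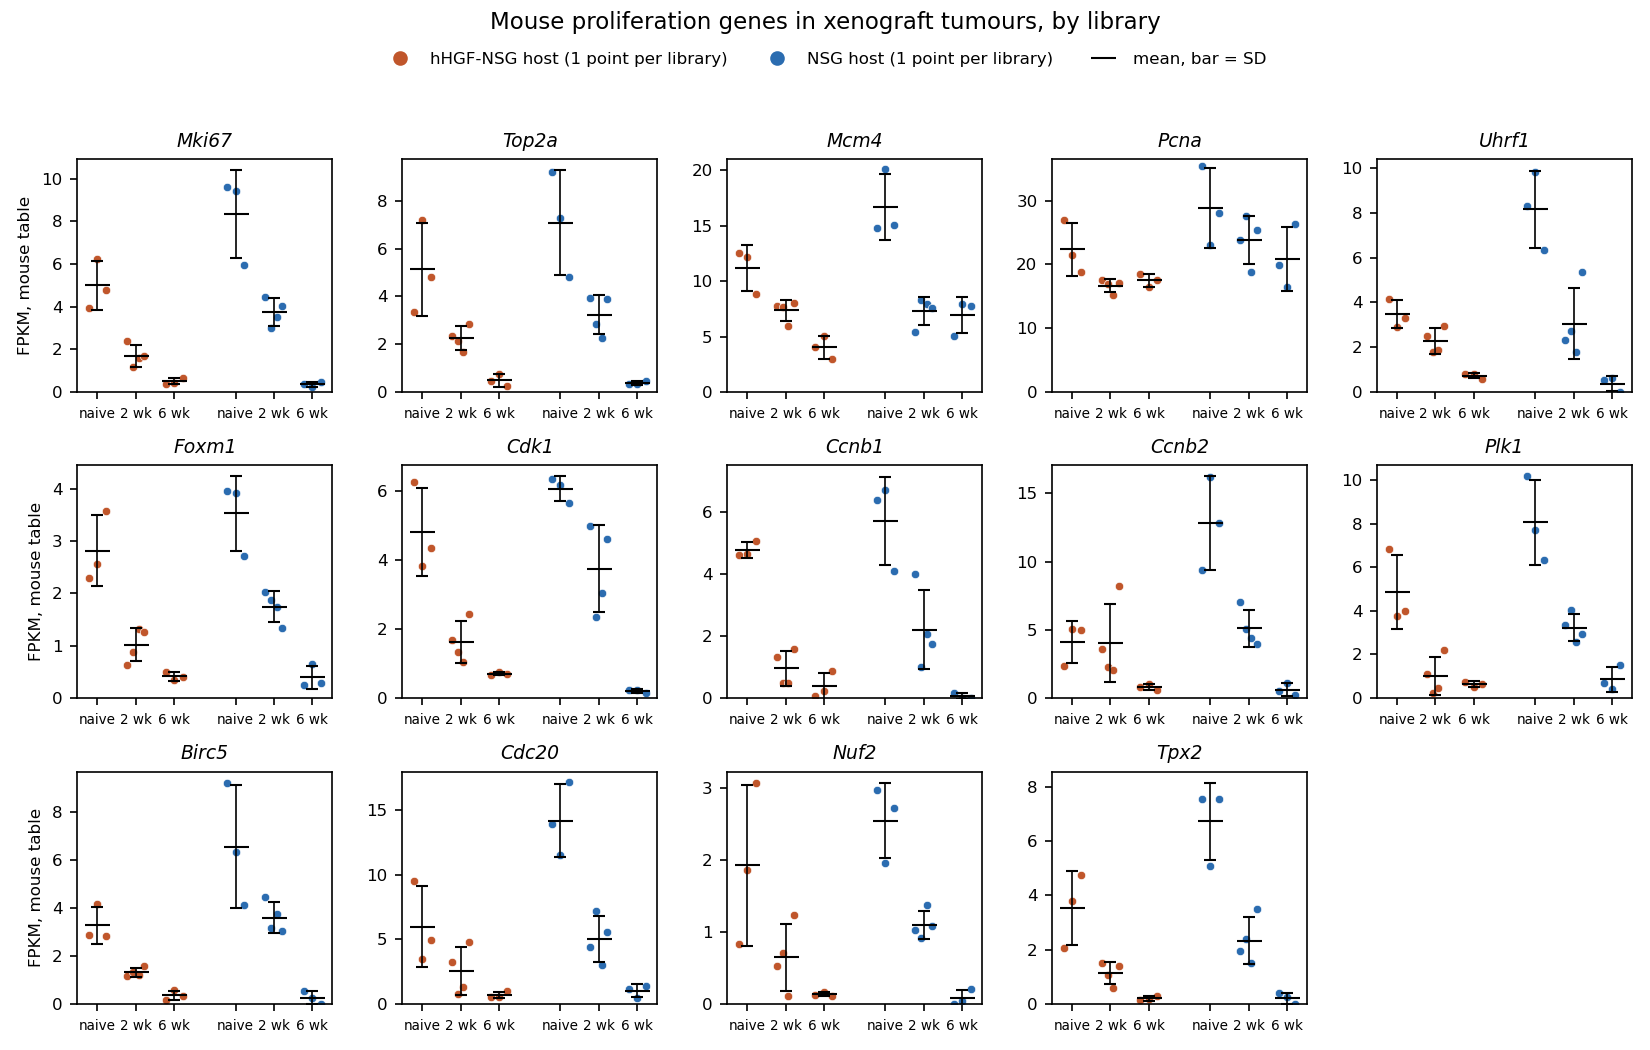
FPKM in the mouse table of 14 of the 42 genes, with 1 point per library, the mean and its SD, for hHGF-NSG (left in each panel) and NSG hosts (right) in the naive state and at 2 and 6 weeks. Most genes step down at both times, as Mki67 does with means of 4.99, 1.69 and 0.496 FPKM in hHGF-NSG and 8.33, 3.75 and 0.351 FPKM in NSG, whereas the treated libraries of Pcna reach into its naive range in NSG.

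The 8 cyclins and mitotic kinases, which drive entry into mitosis, all fell at 6 weeks in both hosts, with medians of -1.77 in hHGF-NSG and -2.55 in NSG. At 2 weeks 5 of the 8 had fallen in hHGF-NSG and 4 in NSG, where 1 (Ccnb2) was left after dropping the library labelled NSG naive replicate 1. Cdk1, the kinase that starts mitosis, had 6.27, 3.83 and 4.34 FPKM in naive hHGF-NSG tumours, 1.67, 1.32, 1.05 and 2.43 FPKM at 2 weeks and 0.672, 0.749 and 0.695 FPKM at 6 weeks. Cdk1 in NSG hosts stood at 6.35, 6.18 and 5.65 FPKM in naive tumours, 4.99, 2.34, 3.04 and 4.62 FPKM at 2 weeks and 0.224, 0.233 and 0.133 FPKM at 6 weeks. At 2 weeks the fall was called in hHGF-NSG (-1.16, SE 0.219, limma adjusted p = 0.003963) and not in NSG (-0.61, SE 0.219, adjusted p = 0.09969), but the difference between the hosts was not called either (-0.54, SE 0.310, limma adjusted p = 0.7743). Ccnb1, the cyclin that partners Cdk1, fell to 1.31, 0.475, 0.492 and 1.57 FPKM at 2 weeks in hHGF-NSG, against 4.61, 4.63 and 5.08 FPKM in naive tumours (-1.60, SE 0.290, adjusted p = 0.002875). The 6 weeks libraries had 0.0491, 0.209 and 0.868 FPKM of Ccnb1 in hHGF-NSG, and 0.175, 0 and 0 FPKM in NSG, where 0 reads allow up to 3 reads per library. NSG hosts had 6.37, 6.69 and 4.09 FPKM of Ccnb1 in naive tumours and 4.00, 1.00, 2.06 and 1.73 FPKM at 2 weeks, so 1 library at 2 weeks came close to the lowest naive one. The 2 weeks call in NSG (-1.13, SE 0.290, adjusted p = 0.02219) was lost under 6 of 13 alternatives, among them dropping the library labelled NSG naive replicate 1 (adjusted p = 0.06685). In hHGF-NSG the 6 weeks libraries of Ccnb1 reached into the range of those at 2 weeks.

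Plk1, a kinase of spindle assembly and mitotic exit, fell at 2 weeks in hHGF-NSG (-1.61, SE 0.290, adjusted p = 0.002737). It had 6.83, 3.76 and 4.00 FPKM in naive hHGF-NSG tumours, 1.11, 0.228, 0.472 and 2.19 FPKM at 2 weeks and 0.754, 0.480 and 0.624 FPKM at 6 weeks. The NSG libraries held 10.2, 7.70 and 6.34 FPKM of Plk1 in naive tumours, 3.34, 4.03, 2.58 and 2.93 FPKM at 2 weeks and 0.670, 0.392 and 1.496 FPKM at 6 weeks. Treated and naive libraries did not overlap, but the 2 weeks call in NSG (-1.09, adjusted p = 0.02608) was lost without the library labelled NSG naive replicate 1. Birc5, which encodes survivin of the chromosomal passenger complex, fell at 6 weeks to 0.183, 0.569 and 0.336 FPKM in hHGF-NSG, against 2.86, 4.17 and 2.81 FPKM in naive tumours. In NSG it fell at 6 weeks to 0.541, 0.254 and 0 FPKM, against 9.21, 6.30 and 4.10 FPKM. Ccnb2, a second cyclin of mitosis, varied at 2 weeks in hHGF-NSG, where 1 library held 8.24 FPKM and the other 3 held 2.03 to 3.598 FPKM, against 2.31 to 5.02 FPKM in naive tumours. That change was not called (-0.12, SE 0.332, adjusted p = 0.8712). By 6 weeks Ccnb2 had fallen in both hosts, by 1.45 in hHGF-NSG and by 3.11 in NSG on the log2 scale. Ccna2, the cyclin of DNA synthesis and of entry into mitosis, fell at 2 and 6 weeks by 1.49 and 2.28 in hHGF-NSG and by 1.20 and 2.93 in NSG, of which the NSG call at 2 weeks was lost without the doubtful naive library. Aurka and Aurkb, kinases of the spindle poles and of the centromere, were not called at 2 weeks in either host and fell at 6 weeks, Aurka by 1.66 in hHGF-NSG and Aurkb by 1.95 in NSG.

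Of the transcription factors, Foxm1, which switches on genes of mitosis, fell at both times in both hosts. It had 2.30, 2.57 and 3.59 FPKM in naive hHGF-NSG tumours, 0.638, 0.870, 1.32 and 1.25 FPKM at 2 weeks and 0.504, 0.337 and 0.397 FPKM at 6 weeks. For NSG hosts the values were 3.97, 3.92 and 2.71 FPKM in naive tumours, 2.03, 1.87, 1.74 and 1.35 FPKM at 2 weeks and 0.256, 0.650 and 0.286 FPKM at 6 weeks. The groups did not overlap, yet the 2 weeks call in NSG (-0.72, SE 0.198, adjusted p = 0.03253) was lost under 7 of 13 alternatives, among them leaving out the library labelled NSG naive replicate 1. Mybl2, which encodes B-Myb, fell in NSG at 6 weeks (-1.04) and was not called in hHGF-NSG (-0.65). Its NSG call was lost without the doubtful naive library (limma adjusted p = 0.1193). Mybl2 is also a member for which the filter may favour a fall.

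The 5 genes of the spindle checkpoint and the anaphase promoting complex, which hold back and then release chromosome separation, all fell at 6 weeks in both hosts (medians -1.54 in hHGF-NSG and -1.80 in NSG), and 1 of the 5 fell at 2 weeks in each host, Bub1 in hHGF-NSG and Cdc20 in NSG. The Cdc20 call (-1.36, SE 0.361, limma adjusted p = 0.0262) was lost under 7 of 13 alternatives, among them dropping the library labelled NSG naive replicate 1 (adjusted p = 0.05635). Cdc20, the activator of the anaphase promoting complex, had 9.46, 3.48 and 4.91 FPKM in naive hHGF-NSG tumours, 3.28, 0.804, 1.30 and 4.82 FPKM at 2 weeks and 0.555, 0.566 and 0.979 FPKM at 6 weeks. In NSG it had 13.9, 11.5 and 17.1 FPKM in naive tumours, 4.40, 7.21, 3.04 and 5.52 FPKM at 2 weeks and 1.18, 0.462 and 1.41 FPKM at 6 weeks. The naive and 2 weeks libraries overlapped in hHGF-NSG and not in NSG. Bub1, a checkpoint kinase, had 0 reads in all 3 hHGF-NSG libraries at 6 weeks, which allows up to 3 reads per library. Ube2c, which attaches ubiquitin for the complex, fell at 6 weeks by 1.36 in hHGF-NSG and by 2.38 in NSG, and the checkpoint proteins Bub1b (by 1.64 and 1.80) and Mad2l1 (by 0.64 and 0.86) fell as well. Of the 4 kinetochore genes, which tie chromosomes to the spindle, none fell at 2 weeks. At 6 weeks 2 of them fell in hHGF-NSG and 4 in NSG (3 without the doubtful naive library). Nuf2, the most abundant of them, had 0.131, 0.167 and 0.108 FPKM at 6 weeks in hHGF-NSG, against 0.836, 1.87 and 3.07 FPKM in naive tumours, and 0, 0.0454 and 0.207 FPKM in NSG, against 2.96, 1.96 and 2.72 FPKM. Cenpe, a kinetochore motor, fell at 6 weeks by 0.78 in hHGF-NSG and by 1.30 in NSG. Cenpf and Ndc80 passed at 6 weeks in NSG (-0.99 and -1.18) and not in hHGF-NSG (-0.64 and -0.85). The Ndc80 call was lost without the doubtful naive library.

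Of the 9 kinesins and spindle or cytokinesis genes, 6 fell at 2 weeks and 8 at 6 weeks in hHGF-NSG, and 3 and 9 in NSG (2 and 8 without the doubtful naive library). Tpx2, which helps microtubules form around chromosomes, had 2.08, 3.79 and 4.74 FPKM in naive hHGF-NSG tumours, 1.51, 1.07, 0.592 and 1.41 FPKM at 2 weeks and 0.133, 0.188 and 0.293 FPKM at 6 weeks. Tpx2 in NSG hosts was at 7.56, 5.07 and 7.54 FPKM in naive tumours, 1.94, 2.39, 1.499 and 3.49 FPKM at 2 weeks and 0.394, 0.246 and 0 FPKM at 6 weeks. No 2 states overlapped, and the 6 weeks change was -1.87 in hHGF-NSG and -2.67 in NSG (SE 0.268, adjusted p = 0.00017 and 4.164e-06). The 2 weeks call of Tpx2 in hHGF-NSG (-1.06, limma adjusted p = 0.01613) was lost under 5 of 13 alternatives. Among them were leaving out hHGF-NSG naive replicate 2 or 3. Anln and Prc1, which act in the last step of division, fell at both times in both hosts, Prc1 in NSG at 2 weeks only with the doubtful naive library, and at 6 weeks by 0.99 and 1.66 in hHGF-NSG and by 1.82 and 1.98 in NSG. Kif2c and Nusap1, which trim and bundle spindle microtubules, fell at 6 weeks in both hosts. Aspm of the spindle poles fell at 6 weeks in NSG (-0.94, against -0.47 in hHGF-NSG, not called). The Aspm call was lost without the doubtful naive library. Kif11, Kif20a and Kif23, motors of the spindle and the midzone, were called at 2 weeks in hHGF-NSG alone (-1.14, -1.07 and -0.89, against -0.56, -0.68 and -0.20 in NSG), with no called difference between the hosts.

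Replication genes fell less often than mitotic genes by their counts, and the difference between the roles was not tested. Of the 6 MCM genes, 0 fell at 2 weeks and 3 at 6 weeks in hHGF-NSG, and 1 and 5 in NSG (1 and 4 without the doubtful naive library). Mcm4, the most abundant of them, had 12.6, 12.2 and 8.84 FPKM in naive hHGF-NSG tumours, 7.76, 7.67, 5.97 and 8.03 FPKM at 2 weeks and 4.10, 5.05 and 2.93 FPKM at 6 weeks. In NSG the values were 14.8, 20.1 and 15.1 FPKM in naive tumours, 5.42, 8.26, 7.91 and 7.55 FPKM at 2 weeks and 5.03, 7.93 and 7.79 FPKM at 6 weeks. In NSG the fall was called at 2 weeks (-1.10, SE 0.196, adjusted p = 0.001969) and the 6 weeks libraries overlapped those of 2 weeks. In hHGF-NSG the change was -0.54 at 2 weeks (adjusted p = 0.1069) and -1.29 at 6 weeks (SE 0.210, adjusted p = 0.0004239). Mcm2 and Mcm6 fell at 6 weeks in both hosts, Mcm6 by 0.99 in hHGF-NSG and by 1.38 in NSG. Mcm5 and Mcm7 passed in NSG at 6 weeks (-2.09 and -0.92) and not in hHGF-NSG (-0.87 and 0.00). The Mcm7 call was lost without the doubtful naive library. Mcm3 was not called, with -0.60 in hHGF-NSG and -0.70 in NSG at 6 weeks.

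Of the 6 fork, nucleotide and methylation genes, 1 fell at 2 weeks and 3 at 6 weeks in each host. Uhrf1, which restores DNA methylation behind the fork, had 4.15, 2.92 and 3.32 FPKM in naive hHGF-NSG tumours, 2.52, 1.76, 1.87 and 2.96 FPKM at 2 weeks and 0.779, 0.785 and 0.591 FPKM at 6 weeks. Uhrf1 in NSG hosts had 8.30, 9.80 and 6.36 FPKM in naive tumours, 2.33, 2.71, 1.80 and 5.35 FPKM at 2 weeks and 0.519, 0.608 and 0 FPKM at 6 weeks. It fell at 2 weeks in NSG (-1.23, SE 0.252, adjusted p = 0.005158) and was not called there in hHGF-NSG (-0.45, adjusted p = 0.2974). Rrm2, the regulated subunit of ribonucleotide reductase, fell at 6 weeks by 2.37 in hHGF-NSG and by 2.72 in NSG on the log2 scale. Its partner Rrm1 was not called, with -0.63 in hHGF-NSG and -0.06 in NSG. Tk1, which salvages thymidine, fell at 6 weeks in both hosts, while Tyms, which makes thymidylate, was not called (-0.51 in hHGF-NSG and -0.67 in NSG). Pcna, the sliding clamp of DNA polymerase, was the most abundant of these genes, with 26.9, 21.4 and 18.8 FPKM in naive hHGF-NSG tumours, 17.6, 16.9, 15.1 and 17.0 FPKM at 2 weeks and 18.5, 16.4 and 17.5 FPKM at 6 weeks. NSG hosts had 35.4, 23.0 and 28.0 FPKM in naive tumours, 23.8, 27.6, 18.8 and 25.4 FPKM at 2 weeks and 19.9, 16.4 and 26.3 FPKM at 6 weeks. All treated libraries lay below all naive libraries in hHGF-NSG, whereas they overlapped in NSG. The change of Pcna at 6 weeks was -0.33 in hHGF-NSG and -0.45 in NSG (SE 0.187, adjusted p = 0.2572 and 0.1073).

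Related genes outside the 42 were read from lists chosen with earlier results of these data known. Of 40 tested genes of mitosis, 10 fell at 2 weeks and 29 at 6 weeks in hHGF-NSG, and 5 and 29 in NSG, with none higher. The shares of all genes called lower were 3.56% and 8.12% in hHGF-NSG and 4.48% and 8.59% in NSG. Pbk, a mitotic kinase, changed by -2.43 at 6 weeks in hHGF-NSG and by -3.13 in NSG. Cks2, a small partner of Cdk1, changed by -2.08 and -2.73. Of 27 tested genes of replication, 1 fell at 2 weeks and 2 at 6 weeks in hHGF-NSG, and 1 and 6 in NSG. Both counts in hHGF-NSG and the 2 weeks count in NSG were near those shares. Chaf1b, of the complex that places histones on new DNA, changed by -1.29 at 6 weeks in hHGF-NSG and by -1.75 in NSG. The list of D cyclins, CDK inhibitors, RB proteins and E2F factors held calls in both directions. Of its 30 genes, 6 fell and 3 rose at 6 weeks in hHGF-NSG, and 8 fell and 4 rose in NSG. Beside them, 17.8% and 17.4% of all genes were called in either direction, and the share called higher was not counted. E2f1, an activating E2F, fell by 0.97 in hHGF-NSG and by 1.53 in NSG, and Cdkn1a, the inhibitor p21, fell by 1.05 and by 1.13. Among the genes that rose, Cdkn1c, the inhibitor p57, changed by 1.91 and 1.61, and Cdkn2c, the inhibitor p18, by 1.30 and 1.28. At 2 weeks 1 gene of this list fell and 3 rose in hHGF-NSG, and 2 fell and 3 rose in NSG. All genes called in either direction were then 7.06% and 7.8%. The 1 of 30 that fell in hHGF-NSG was near the 3.56% of all genes called lower.

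At 2 weeks the tumour cells had less of this programme left than the stroma, and by 6 weeks both had come down to a similar part of the naive level. At 2 weeks the median mouse member was at 40.2% of its naive mean in hHGF-NSG (range 20.1% to 98.4%) and at 50.6% in NSG (34.5% to 117.3%), whereas the median human orthologue was at 19.0% (3.5% to 67.5%) in hHGF-NSG and 19.7% (4.2% to 65.9%) in NSG. More of the naive level was left in mouse than in human for 36 of 42 genes in hHGF-NSG and 41 of 42 in NSG. The exceptions were Cdk1, Ccnb1, Aurka, Bub1, Kif23 and Prc1 in hHGF-NSG and Prc1 in NSG. Human PRC1 had 2 to 32 reads per library, so its percentage is poorly measured. By 6 weeks the medians had come together, with 12.3% left in mouse and 12.8% in human in hHGF-NSG and 8.8% and 11.4% in NSG, and 25 and 18 of the 42 genes had more left in mouse. With the library labelled NSG naive replicate 1 set aside, the mouse medians in NSG were 63.7% at 2 weeks and 8.9% at 6 weeks, with more left in mouse for 41 and 20 genes. In NSG the human means also include naive replicate 2 and 6 weeks replicate 4, which were not analysed in mouse. The tables were normalized separately, so these percentages stand side by side and the difference between species was not tested.

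**Figure D4:**
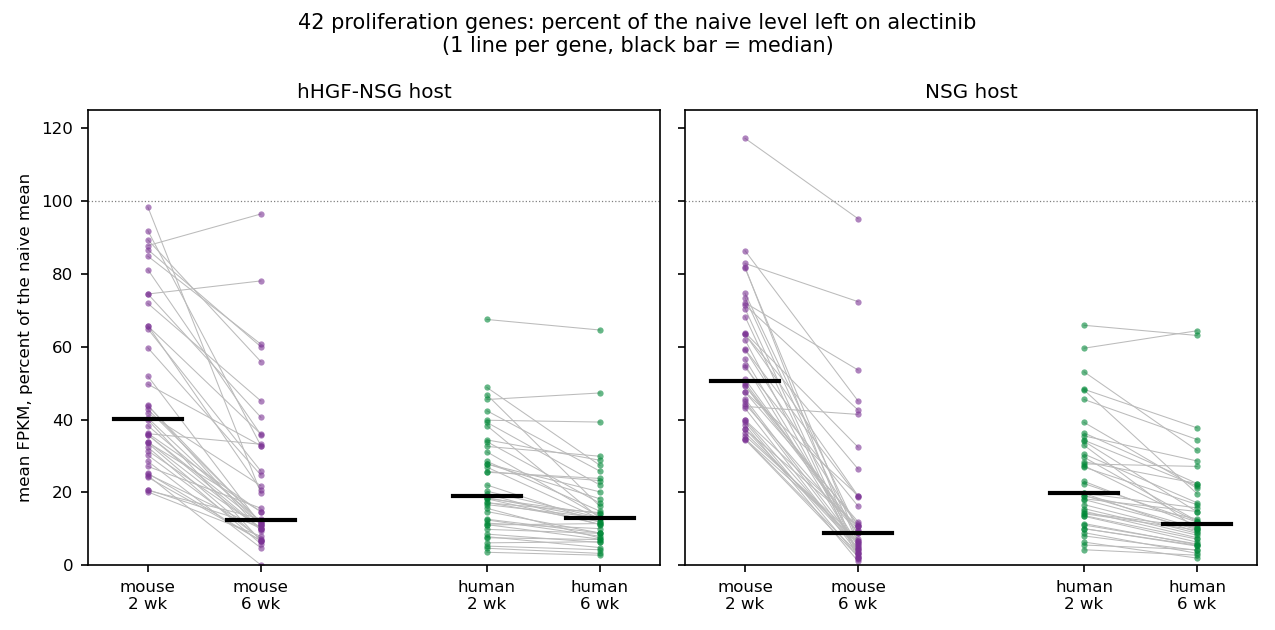
Mean FPKM of each of the 42 genes at 2 and 6 weeks of alectinib as a percentage of its naive mean, for the mouse gene (left) and the human orthologue (right), with 1 panel per host, 1 line per gene and black bars at the medians. At 2 weeks the mouse medians (40.2% in hHGF-NSG, 50.6% in NSG) stand above the human ones (19.0% and 19.7%), and at 6 weeks they lie close to them.

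The roles differed in how much was left in the stroma, while the order among the human genes was another, and neither was tested. In hHGF-NSG hosts at 2 weeks the median MCM gene was at 79.7% of naive in mouse and 33.8% in human, and the median fork and nucleotide gene at 70.2% and 16.8%. Cyclins and kinases were at 34.8% in mouse and 24.0% in human there, and kinetochore genes at 31.8% and 16%. At 6 weeks the MCM genes still had 42.8% in mouse and 29.7% in human, but the cyclins and kinases 10.6% and 15.0%. NSG hosts at 6 weeks gave 36.9% and 28.4% for the MCM genes, 4.4% and 12.6% for cyclins and kinases and 2.6% and 11% for kinetochore genes, with mouse values of 39.2%, 4.6% and 3.0% for these roles without the doubtful naive library. More than 50% of the naive level was left in mouse at 6 weeks for Mcm3, Mcm7, Pcna, Rrm1 and Tyms in hHGF-NSG (55.9% to 96.5%) and for Mcm3, Pcna and Rrm1 in NSG (53.6% to 95.2%). All of them are genes of DNA synthesis.

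Every tested human orthologue fell in every comparison with naive tumours. That was 41 of 41 genes. Of all 16029 human genes, 54.1% and 51.3% were called in either direction in hHGF-NSG at 2 and 6 weeks. In NSG these shares were 56.1% and 57.6%. The share called lower was not counted for all human genes. Human PRC1 did not pass the filter. MKI67 had 16.02, 22.8 and 21.8 FPKM in naive hHGF-NSG tumours, 0.963, 0.992, 1.09 and 1.13 FPKM at 2 weeks and 0.549, 1.11 and 0.895 FPKM at 6 weeks. In NSG hosts MKI67 had 20.8, 22.9, 22.2 and 20.4 FPKM in naive tumours, 1.27, 1.10, 1.09 and 1.31 FPKM at 2 weeks and 0.613, 1.02, 0.556 and 1.45 FPKM at 6 weeks. It was thus at 5.2% and 5.5% of its naive mean at 2 weeks, where mouse Mki67 was at 33.9% and 45.0%. From 2 to 6 weeks human MKI67 did not change by the test (-0.15 in hHGF-NSG and -0.22 in NSG, adjusted p = 0.6272 and 0.2426), while mouse Mki67 fell further in NSG (-1.81, SE 0.202, adjusted p = 0.0001774). In hHGF-NSG the mouse change of -0.83 had an adjusted p of 0.05215.

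Set against its own 6 weeks change, the mouse programme had run less far at 2 weeks. Among members called lower at 6 weeks, the 2 weeks log2 change was a median of 58.0% of the 6 weeks change in hHGF-NSG (32 mouse genes) and 40.8% in NSG (38 mouse genes). For the human genes it was 85.9% and 77.9% (41 genes in each host). Each share sets changes side by side that have the naive libraries in common, so it is a description. Choosing genes by their 6 weeks call dropped some mouse members and no tested human gene, which can lower the mouse shares. The share exceeded 50% for 22 of 32 mouse genes in hHGF-NSG and 5 of 38 in NSG, against 39 of 41 human genes in either host. Without the doubtful naive library the NSG median was 34.5% over 34 mouse genes, 2 of them above 50%. Counted in FPKM and not on the log scale, the medians were 72.1% and 56.3% in mouse and 93.9% and 92.0% in human, and 50.8% in NSG mouse genes without that library. The order of the genes differed between the species, as the percentages left in mouse and human had a Spearman rho of 0.13 in hHGF-NSG and 0.25 in NSG at 2 weeks over the 42 genes, and 0.36 and 0.28 at 6 weeks. Between the hosts rho was 0.31 at 2 weeks and 0.72 at 6 weeks in mouse, and 0.95 and 0.96 in human. Genes read in the same libraries share depth, so these values are a description.

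Between 2 and 6 weeks the stroma of NSG hosts went on losing the programme, while in hHGF-NSG the changes were mostly negative but rarely called. The difference between the hosts in this change was not tested. In NSG 27 of the 42 mouse members were lower at 6 weeks than at 2 weeks, beside 3.89% of all genes called (1.5% lower), with a median change of -1.04. In hHGF-NSG 1 member, Top2a, was called (-1.13, SE 0.239, adjusted p = 0.02934), beside 1.08% of all genes (0.371% lower), although 40 of the 42 changes were negative and the median was -0.51. Averaged over the hosts, 29 members fell, beside 10.5% of all genes (4.2% lower). The NSG count was 11 to 22 when single libraries were left out, the fewest without NSG 6 weeks replicate 1, and the hHGF-NSG count was 0 to 6, with Top2a no longer called in 6 of 7 such fits. Of the human orthologues, 18 of 41 fell between 2 and 6 weeks in hHGF-NSG and 30 of 41 in NSG, with medians of -0.37 and -0.56. Beside them, 9.08% and 20.4% of all human genes were called in either direction. Averaged over the hosts 27 of 41 fell, beside 23.1% called in either direction. Human TOP2A, for example, was lower at 6 weeks than at 2 weeks in both hosts (-0.79 in hHGF-NSG and -0.92 in NSG), while human MKI67 was called in neither.

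Few members passed a test between the hosts, although most were lower in hHGF-NSG in naive tumours and at 2 weeks. In naive tumours the members were lower in hHGF-NSG than in NSG for 37 of 42 genes (median -0.34), and 0 passed the limma test, beside 0.042% of all genes called. Of the 42, 11 had an unadjusted p below 0.05, and none passed under any alternative tried. Dropping the library labelled NSG naive replicate 1 left 33 of 42 lower in hHGF-NSG with a median of -0.18 and 7 at an unadjusted p below 0.05. At 2 weeks 37 of 42 were lower in hHGF-NSG (median -0.48), and 1 was called, beside 0.371% of all genes. That member was Birc5, with 1.17, 1.33, 1.22 and 1.59 FPKM in hHGF-NSG, against 4.45, 3.17, 3.73 and 3.03 FPKM in NSG (-0.98, SE 0.210, adjusted p = 0.04948), and its call was lost under most alternatives. Mki67 followed with -0.83 (SE 0.187, adjusted p = 0.0712). At 6 weeks 0 were called (beside 0.252% of all genes, with 3 members at an unadjusted p below 0.05), and 14 of 42 were lower in hHGF-NSG (median 0.07).

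The difference in 6 weeks log2 change, hHGF-NSG minus NSG, was negative for 6 of 42 members and had a median of 0.40, and 0 of these differences were called (beside 0.007% of all genes, with 10 members at an unadjusted p below 0.05). Dropping that library gave a median of 0.25 with 10 of 42 negative and 5 at an unadjusted p below 0.05. Ccnb2 (1.67, SE 0.502) and Uhrf1 (1.38, SE 0.381) were the furthest apart, both with an adjusted p of 0.5374. Ccnb2 in naive tumours had 2.31, 5.02 and 4.99 FPKM in hHGF-NSG, against 9.36, 16.2 and 12.9 FPKM in NSG, while at 6 weeks it had 0.812, 1.04 and 0.597 FPKM in hHGF-NSG, against 0.481, 1.13 and 0.215 FPKM in NSG. At 2 weeks the median difference was -0.17 and 0 differences were called (beside 0% of all genes, with 3 members at an unadjusted p below 0.05). That median had no stable sign, at -0.28 without the doubtful naive library, 0.01 without NSG naive replicate 3, -0.02 without NSG naive replicate 4, -0.03 without NSG 2 weeks replicate 4 and -0.04 without hHGF-NSG naive replicate 2.

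Mouse reads of these genes were few beside the human ones. The 42 mouse genes held 2.27% as many reads as their human orthologues in naive hHGF-NSG tumours, 5.89% at 2 weeks and 11.8% at 6 weeks, and 2.41%, 9.62% and 7.76% in NSG. For 12 genes of the tumour epithelium, read in the mouse table, the same ratio was 0.009% to 0.034% in the 6 groups. The share of mouse reads among all reads was 24.3% to 28.9% at 6 weeks in hHGF-NSG, against 6.81% to 13.5% in naive tumours, and 16.9% to 21.9% in NSG, against 5.5% to 11.99%.

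Other stromal genes changed too, in both directions, and their part in these results was not tested. The stroma held fibroblast, macrophage, endothelial and pericyte markers, none of them at 0 throughout a group, while 6 lymphocyte markers summed to at most 2.06 FPKM in any library, with 3 to 5 of them at 0 in every library of a group. Beside the marker counts that follow, 3.56% and 8.12% of all genes were called lower at 2 and 6 weeks in hHGF-NSG. In NSG these shares were 4.48% and 8.59%. Called in either direction at 6 weeks were 17.8% in hHGF-NSG and 17.4% in NSG. Of 8 pericyte and smooth muscle markers, 3 fell at 2 weeks and 5 at 6 weeks in hHGF-NSG, and 4 and 6 in NSG. Their summed level in hHGF-NSG was 769 to 1080 FPKM in naive tumours, 287 to 792 FPKM at 2 weeks and 171 to 272 FPKM at 6 weeks. In NSG it had a median of 773 FPKM in naive tumours, 634 FPKM at 2 weeks and 213 FPKM at 6 weeks. By median sum, the pericyte and neutrophil markers stepped down at 2 and at 6 weeks in both hosts, as the proliferation genes did. Fibroblast and macrophage medians did so in hHGF-NSG alone, and the endothelial median in NSG alone. In NSG the fibroblast median was 7260 FPKM in naive tumours, 10600 FPKM at 2 weeks and 6950 FPKM at 6 weeks. Adipocyte medians rose at both times in both hosts.

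Of 8 endothelial markers, 2 fell at 2 weeks and 3 at 6 weeks in hHGF-NSG, where 1 rose at 6 weeks, and 4 and 5 fell in NSG. Their sums at 6 weeks were 193 to 284 FPKM in hHGF-NSG, against 245 to 289 FPKM in naive tumours, and 157 to 194 FPKM in NSG, against 254 to 368 FPKM. Of 5 tested neutrophil markers (8 listed, 1 to 3 at 0 in a group), 3 fell at each time in hHGF-NSG, and 4 and 5 in NSG, with sums at 6 weeks of 10.2 to 13.5 FPKM in hHGF-NSG, against 42.2 to 218 FPKM in naive tumours, and 10.7 to 19.8 FPKM in NSG, against 171 to 297 FPKM. Of 9 macrophage markers 3 fell at 6 weeks in each host, and their sums were 4400 to 5740 FPKM in hHGF-NSG, against 4170 to 6260 FPKM in naive tumours, and 5270 to 6630 FPKM in NSG, against 5420 to 5590 FPKM. Of 8 fibroblast markers 2 rose at 6 weeks in hHGF-NSG and 3 in NSG, and none fell, but their sums were 4330 to 5370 FPKM in hHGF-NSG, against 5960 to 8200 FPKM in naive tumours, and 4820 to 7000 FPKM in NSG, against 4710 to 10400 FPKM. All 7 adipocyte markers rose at 6 weeks in both hosts, with sums of 7030 to 13400 FPKM in hHGF-NSG, against 736 to 2360 FPKM in naive tumours, and of 4990 to 6200 FPKM in NSG, against 487 to 1860 FPKM. Of 5 tested erythroid markers (8 listed) 4 fell at each time in NSG and 0 in hHGF-NSG.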

How the data were processed

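Total RNA came from TRIzol lysates of tumour tissue, per the labels' protocols. FPKM values were deposited by the authors in a human table and a mouse table, normalized separately. The submitters' processing notes name hg38, mm10 and DESeq2. Not given in the sources used here are the aligner, the annotation and how reads were assigned to a species. Whole reads were recovered from the FPKM steps (100% of low values whole within 0.05 reads). Intervals from a count of 0 (3 reads) cover counting error only.

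Levels were tested as log2(FPKM + 1) with limma 3.58.1 in R 4.3.3, with 1 mean per group over all libraries of a table, a variance trend, two-sided tests and Benjamini-Hochberg adjustment over all genes at 1 FPKM or more in at least 3 libraries (14287 mouse genes, 16029 human genes), threshold 0.05. The pseudocount understates changes of low genes. Percentages of the naive level are ratios of mean FPKM in 1 table. Sums, shares and figures used Python 3.11.15, pandas 2.3.3, scipy 1.17.1 and matplotlib 3.10.9. The fit was tested on simulated data. Results were recomputed with a pseudocount of 0.1, without the filter, after rescaling by the median ratio, with a replicate block, with voom on recovered or thinned reads, and without single libraries. Values per library are given for Mki67, for the member with the highest mean FPKM of each role and for the 3 called members with the smallest adjusted p in each mouse comparison with naive. The members, lists and rules were chosen with earlier results of these data known.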

Additional observations from a re-analysis of the deposited data

Results flagged for a closer look

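A screen covered 84 combinations of a gene shown library by library and a group of 4 libraries, in both tables. In 3 of them a library lay far from the other 3, judged against the range of the group. Chance gives about 1 in 20 such groups, so the 3 are no more than chance would give. Human PCNA, the sliding clamp, had 49.94 FPKM in NSG 6 weeks replicate 3, against 31.02, 32.28 and 32.72 FPKM in the other NSG libraries of that time. Human FOXM1, the factor of mitotic genes, had 18.36 FPKM in NSG naive replicate 1, the library with HGF reads, against 23.36, 23.64 and 23.82 FPKM in the other naive NSG libraries. Human CCNB2, a mitotic cyclin, had 5.348 FPKM in NSG 2 weeks replicate 1, against 4.912, 4.92 and 4.925 FPKM in the other 3. No mouse gene was singled out in this way, but only the 2 weeks groups held 4 mouse libraries. The naive and 6 weeks groups were thus not screened in mouse.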

How the results depend on the processing

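The falls at 6 weeks held best: 32 calls in hHGF-NSG became 29 to 31 without single libraries, and 38 in NSG became 34 to 37. The 2 weeks counts depended on the settings. In hHGF-NSG 16 calls became 9 with a pseudocount of 0.1, 10 on thinned reads and 8 to 19 without single libraries (9 without 2 weeks replicate 3). In NSG 13 became 3 with a pseudocount of 0.1, 8 without the filter, 8 on thinned reads and 5 to 13 without single libraries (6 without naive replicate 1, 8 without naive replicate 3 or 2 weeks replicate 2). Between 6 and 2 weeks the 1 call in hHGF-NSG became 3 with a pseudocount of 0.1, 0 without the filter, 8 with voom, 2 on thinned reads and 0 to 6 without single libraries. The 27 in NSG became 11 to 22, with 11, 17 and 14 without 6 weeks replicate 1, 2 or 3 and 15 without 2 weeks replicate 2. The mean of hosts kept 24 to 30 calls. For hHGF-NSG against NSG at 2 weeks the 1 call became 0 with a pseudocount of 0.1, without the filter or on thinned reads, 2 with voom, and 0 to 2 without single libraries. For the human orthologues, 18 calls between 6 and 2 weeks in hHGF-NSG became 10 to 20, with 10 without 6 weeks replicate 1. The cause was not tested.

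Of 4032 values of the 42 members under these settings, 28 turned sign, in 13 genes, none of them called (among them Mcm7 at 6 weeks in hHGF-NSG, at 0.00). Among the 14 genes shown by library these were 4. Ccnb2 at 2 weeks in hHGF-NSG was 0.20 on thinned reads and -0.46 to 0.076 without single libraries. Without single libraries, Mcm4 between 6 and 2 weeks in NSG was -0.19 to 0.11, Plk1 in hHGF-NSG -0.41 to 0.048, and Pcna over both hosts -0.15 to 0.011. Rescaling moved no count and no median of all genes by over 0.1.

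Replicate numbers did not pair the samples in mouse (correlations -0.13 to 0.11). In the human table the correlations were -0.33 to 0.26, with 7 of 51 above 0.1. With a replicate block the calls at 2 and 6 weeks were 19 and 31 in hHGF-NSG and 12 and 36 in NSG, and between 6 and 2 weeks 0 in hHGF-NSG, 20 in NSG and 23 over both hosts, with 0 for the hosts at 2 weeks. At 6 weeks single members rest on few reads: Bub1 had 0 reads in hHGF-NSG.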
